A study of Mus musculus with 2 samples.

Results

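The cytochrome P450 family 4 genes of mice, among them the Cyp4a and Cyp4f fatty acid hydroxylases, were followed in precancerous liver. The set held 9 genes, Cyp4a10, Cyp4a14, Cyp4f13, Cyp4f14, Cyp4f15, Cyp4f16, Cyp4f18, Cyp4v3 and Cyp4b1, chosen by name. Every probe set that the platform annotation assigns to one of them was taken, 13 of the 45101 probe sets on the array. Of these, 11 name a single gene and 2 name a member together with a close relative. Cyp4a10 is named by a shared probe set alone, so 8 members had a value of their own among the 11693 genes compared.

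Both groups carried a Pik3ca transgene expressed in hepatocytes, which raises phosphoinositide 3-kinase signalling. One group was wild type for Kdm3a, the gene of an enzyme that removes methyl groups from lysine 9 of histone H3, and the other was a Kdm3a knockout, described as a plain knockout with no cell type given. The comparison addresses what Kdm3a loss goes with in this liver before tumours form. Mice ate regular chow under light and dark periods of 12 h each; the labels used here give no age, sex or strain and do not say how many animals an array stands for. The groups are called wild type and knockout below, and both are Pik3ca transgenic.

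Each group had 1 Affymetrix array, so nothing here was tested, no value has an error between animals, and 2 arrays limit the precision. Values are MAS5 signals, intensities on a linear scale in which both arrays have the same trimmed mean. A log2 ratio is knockout over wild type, with signals under a floor of 46.5 raised to it, and a gene is counted as higher or lower from 2-fold on. Over all genes compared, 448 were higher (3.83%) and 1048 lower (8.96%), against 696 and 786 if the poly-A controls set the scale and 307 and 1277 if the hybridisation controls did. The median log2 ratio of all genes was -0.02, and it was 0.16 and -0.16 under those scalings. Probe sets of the same gene had an SD of 0.446 in log2 ratio over 4958 genes, the single repeat measurement these arrays allow. Kdm3a read 719.9 in wild type and 61.6 in the knockout; whether its probe set lies in the deleted part is not known here. The brightest Pik3ca probe set read 1069 and 1107, its 5 probe sets had log2 ratios from -0.54 to 0.05, and whether any of them reads transgene RNA is not known either. All 12 hepatocyte markers were measured, with a summed signal of 396367 in wild type and 559101 in the knockout.

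Family 4 P450 enzymes are haem proteins of the endoplasmic reticulum that hydroxylate the last carbon of a fatty acid, the omega position. Alcohol and aldehyde dehydrogenases then turn the product into a dicarboxylic acid, which peroxisomes shorten. The Cyp4a genes are classical targets of the fatty acid receptor PPAR-alpha in rodent liver, whereas Cyp4f enzymes are best known for hydroxylating leukotriene B4, a neutrophil attractant, and other eicosanoids.

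The family did not differ in one direction between the arrays. Of the 8 members with a value, Cyp4f15 was higher in the knockout, Cyp4f16 and Cyp4f18 were lower, and Cyp4a14, Cyp4f13, Cyp4f14, Cyp4v3 and Cyp4b1 lay within 2-fold with log2 ratios from 0.31 to 0.52. One of 8 members higher and 2 of 8 lower stand beside 3.83% and 8.96% of all genes, and with so few genes these shares set nothing apart. Cyp4f18 was below the floor in the knockout and passed the filter on dim probe sets through its wild-type signal, so it had to appear lower. The median over the 8 members was 0.44.

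**Figure D1:**
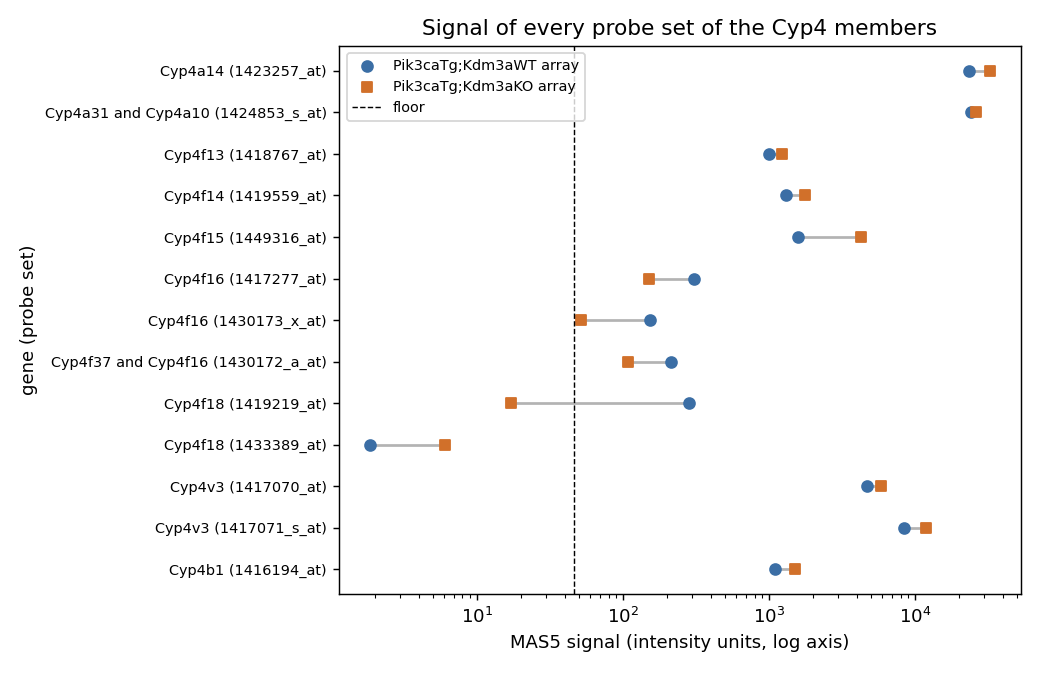
MAS5 signal (log axis) of each of the 13 probe sets of the Cyp4 members, with a circle for the wild-type array and a square for the knockout array; the dashed line is the floor of 46.5. Cyp4f15 moves from 1594 to 4263, Cyp4f18 from 286 to 17.1, and signals of different probe sets are not comparable with each other.

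The Cyp4a members lay far above the floor on both arrays and differed between them by less than 2-fold. Cyp4a14, an omega-hydroxylase strongly inducible through PPAR-alpha, read 23577 in wild type and 32526 in the knockout, a 1.38-fold difference and a log2 ratio of 0.46. The probe set that names both Cyp4a10 and its neighbour Cyp4a31 read 24368 and 26180, a log2 ratio of 0.10. Neither value reached 2-fold, and that of the shared probe set changed sign with the scaling, from -0.12 after loess to 0.28 on the poly-A controls. Cyp4a14 kept a positive ratio under every scaling, from 0.21 to 0.64.

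Relatives outside the set differed from these values. Cyp4a31 has 2 probe sets of its own: the brighter read 1440 in wild type and 559 in the knockout, a log2 ratio of -1.36, and the other read 182 and 100.3, a ratio of -0.86. Both were thus higher in wild type, while the probe set that Cyp4a31 shares with Cyp4a10 was nearly level. Cyp4a12a, known for its male-predominant expression in mouse liver, read 6379 and 3556, a log2 ratio of -0.84. Of 12 other Cyp4 genes listed, 2 were measured, these 2, with 1 lower and 0 higher, beside 8.96% and 3.83% of all genes. Their median was -1.10 against -0.02 for all genes. Cyp4x1 and the pseudogene Cyp4f41-ps were below the floor on both arrays, and Cyp4f39, at 53.1 and 73.2, was too dim to be compared. The close sequence similarity of Cyp4a genes means that probes of one can read another, and their shares in these signals were not tested.

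Among the 5 Cyp4f members the differences ran both ways. Cyp4f15, a hydroxylase of this subfamily, read 1594 in wild type and 4263 in the knockout, 2.67-fold higher, for a log2 ratio of 1.42. Among all 11693 genes compared, 155 had a higher ratio than Cyp4f15. In the brightest quintile of genes, to which Cyp4f15 belongs, 4.49% of genes were higher. The excess of Cyp4f15 held under the 5 other scalings, with ratios from 1.29 to 1.59. The other filters, floors and probe-set rules left it unchanged, since it was read by 1 bright probe set. No second probe set checks it. All 12 hepatocyte markers also had positive ratios, 11 after quantile normalization and 10 after loess. Their median was 0.45, and 0.18 after either of these. Of the 12 markers, 2, Tat and Hpd, passed 2-fold, beside 3.83% of all genes, and 1 to 3 did over the other scalings. The part of hepatocyte content in the Cyp4f15 value was not tested. In bulk tissue, fewer cells of a type and less RNA per cell cannot be told apart.

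Its neighbours in the subfamily differed less. Cyp4f14, a leukotriene B4 hydroxylase of mouse liver, read 1317 and 1770, a log2 ratio of 0.43. Cyp4f13 read 1003 in wild type and 1243 in the knockout, a ratio of 0.31. Both ratios were smaller than the SD of 0.446 between probe sets of a gene, and both stayed positive and within 2-fold under the 12 settings.

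Cyp4f16 was lower in the knockout, at the edge of the 2-fold rule. Its brighter probe set read 306 in wild type and 152 in the knockout, 2.01-fold lower, for a log2 ratio of -1.01. A second probe set read 153 and 51.5, a ratio of -1.57, and the shared one that also names Cyp4f37 read 215 and 109, a ratio of -0.98. The 3 probe sets thus went the same way. The second was below the filter level of 73.7 in the knockout and passed through its wild-type signal, so it had to appear lower. The gene's ratio lay between -1.14 and -0.83 over the scalings and was short of 2-fold after quantile normalization, after loess and on the poly-A controls. Genes of similar brightness, the second quintile of mean signal, were lower in 12.2% of cases.

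Cyp4f18, the leukotriene-hydroxylating member known from neutrophils and other myeloid cells, had the largest difference of the set at the floor used. It read 286 in wild type and 17.1 in the knockout, which is below the floor, so the gene was at least 6.14-fold lower. Raising the floor to the 60th percentile of signals shrinks this bound to a log2 ratio of -1.16, and without a floor the ratio was -4.06. Its second probe set, at 1.88 and 6.03, was below the floor on both arrays and gave no ratio. In the dimmest quintile of genes, to which Cyp4f18 belongs, 14.8% of genes were lower.

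Markers of myeloid cells differed beside Cyp4f18, in both directions. Over all genes compared, 3.83% were higher and 8.96% lower. Of 14 neutrophil and monocyte markers, 8 were measured, 4 of them lower and 1 higher. The summed signal of the 8 was 4088.5 in wild type and 1662 in the knockout. Csf3r (0.52), Ltf (0.06) and Ngp (-0.33) lay within 2-fold. The lower ones were S100a9, Ccr2, S100a8 and Fcgr4, the higher one was Mmp9, and the neutrophil receptor Cxcr2 was below the floor on both arrays. Ccr2, at 71.1 in the knockout, and Mmp9, at 52.7 in wild type, were there below the filter level of 73.7. Each passed the filter through the other array, so its direction was fixed. Of 14 macrophage markers, 5 were lower and 3 higher, with summed signals of 48124 and 33987. Trem2 (-2.38), Cd68 (-2.11), C1qb (-1.37), Lyz2 (-1.23) and C1qa (-1.13) were the lower ones. The 3 higher ones, Cd163, Marco and Timd4, known from resident liver macrophages, were below the floor in wild type and passed the filter through their knockout signal, so they had to appear higher. Of 10 dendritic and B cell markers, 3 were measured, with 1, Itgax, lower and summed signals of 722 and 357; Flt3, Ccr7, Xcr1 and Cd79a were below the floor on both arrays. The part of these cells in the Cyp4f18 value was not tested.

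**Figure D2:**
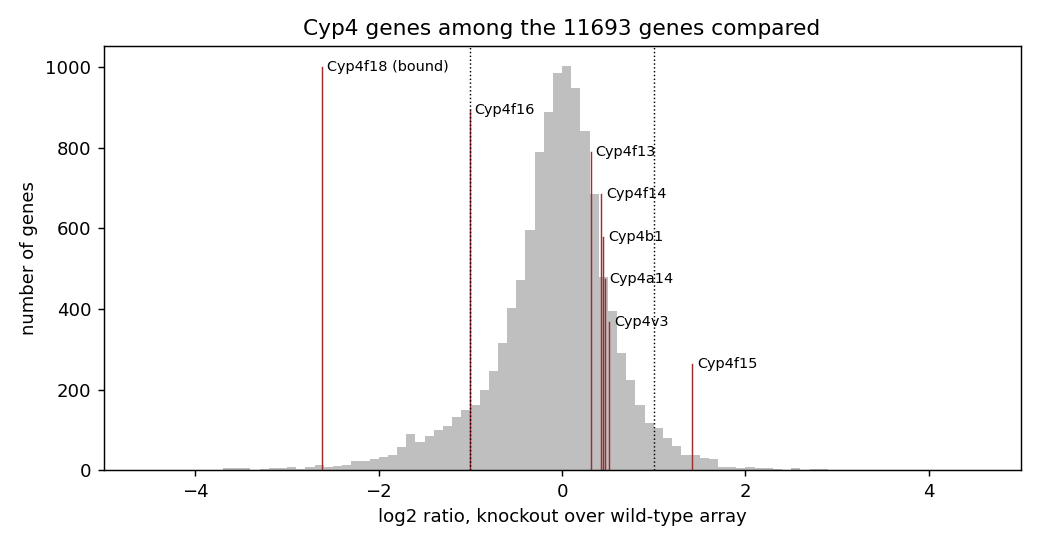
Histogram of log2 ratios, knockout over wild type, of the 11693 genes compared (bars, number of genes), with a line for each of the 8 Cyp4 members that had a value; dotted lines mark 2-fold. Cyp4f15 stands at 1.42, Cyp4f16 at -1.01, Cyp4f18 at its bound of -2.62, and the other 5 between 0.31 and 0.52.

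The sequence upstream of the Cyp4f genes was examined because members of one subfamily differed in opposite directions. RefSeq windows of 250 bases before the annotated start (build GRCm38.p6) were found for 7 of 9 members, in 10 windows since Cyp4f14 has 4 annotated starts; Cyp4a10 and Cyp4a14 had no entry. The windows of the member that was higher, of Cyp4f14, which lay within 2-fold, and of the 2 members that were lower follow, each 5′ to 3′ on the gene's strand. Capitals mark ATTGG, which reads CCAAT on the opposite strand, the core of a promoter element bound by the factor NF-Y.
Cyp4f15, chr17:32685409-32685658, plus strand: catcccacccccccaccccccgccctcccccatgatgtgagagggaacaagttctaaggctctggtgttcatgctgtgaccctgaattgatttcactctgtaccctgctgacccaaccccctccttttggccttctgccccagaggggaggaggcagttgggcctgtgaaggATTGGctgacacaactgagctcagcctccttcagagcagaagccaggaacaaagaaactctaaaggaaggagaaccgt
Cyp4f14 (first start), chr17:32917357-32917606, minus strand: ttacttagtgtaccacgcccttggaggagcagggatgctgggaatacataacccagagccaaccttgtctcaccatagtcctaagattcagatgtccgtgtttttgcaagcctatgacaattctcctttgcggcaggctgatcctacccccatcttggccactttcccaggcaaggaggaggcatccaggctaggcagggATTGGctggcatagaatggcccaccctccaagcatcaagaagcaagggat
Cyp4f16, chr17:32536307-32536556, plus strand: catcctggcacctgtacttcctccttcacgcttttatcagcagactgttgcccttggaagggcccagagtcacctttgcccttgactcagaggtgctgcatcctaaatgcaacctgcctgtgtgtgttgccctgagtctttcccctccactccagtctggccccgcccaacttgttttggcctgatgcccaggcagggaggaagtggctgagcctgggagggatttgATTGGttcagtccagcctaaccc
Cyp4f18, chr8:72009627-72009876, minus strand: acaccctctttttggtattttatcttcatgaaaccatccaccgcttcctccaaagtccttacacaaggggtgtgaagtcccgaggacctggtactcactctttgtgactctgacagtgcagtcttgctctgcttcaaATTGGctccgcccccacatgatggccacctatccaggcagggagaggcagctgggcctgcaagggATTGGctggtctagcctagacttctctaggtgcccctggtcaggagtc

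All 5 Cyp4f members held CCAAT, searched on both strands, and Cyp4v3 and Cyp4b1 did not. Among 32851 such windows of all genes in the table, 33.8% held it. The Cyp4f genes are relatives of one subfamily, so their matches are not independent and this share does not set them apart. In Cyp4f15 the match began 78 bases before the start, in the first window of Cyp4f14 50 bases, in Cyp4f13 76 bases and in Cyp4f16 23 bases, while Cyp4f18 had matches at 113 and 48 bases. The fourth window of Cyp4f14 held its match on the gene's own strand. A longer form, GATTGGNTG on either strand, contains the CCAAT match and was chosen after the sequences were read. It was present in Cyp4f13, Cyp4f14, Cyp4f15 and Cyp4f18, and in 2.91% of all windows. Its presence in these members was fixed by that choice, so the share of all windows does not set them apart. Within the Cyp4f subfamily, CCAAT was present in the member that was higher, the 2 that were lower and the 2 within 2-fold. Any part of it in these ratios was not tested. The nuclear receptor half-site AGGTCA was in 0 of the 10 windows, against 14% of all, and its direct repeat AGGTCANAGGTCA, of the PPAR type, in 0 of 10 against 0.0335%. At so low a share 10 windows would rarely hold a match, so this count does not show that PPAR sites are absent. The Cyp4a members had no window, and windows of Cyp4f14 overlap each other. TATAAA was likewise in 0 of 10 and in 12.4% of all. Cyp4f16 and Cyp4f37, which share a probe set, were identical at 179 of 183 aligned bases of their upstream windows, or 97.8%.

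**Figure D3:**
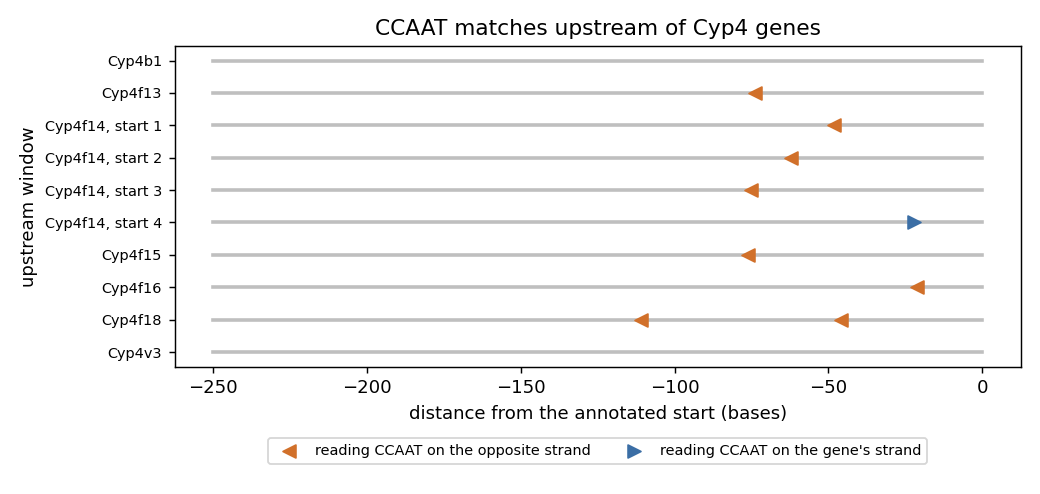
Position of CCAAT matches in the 250 bases upstream of each annotated start of 7 Cyp4 members (horizontal axis, bases before the start; one line per start), with arrowheads for the strand. Every Cyp4f window has a match, on the opposite strand in all but the fourth start of Cyp4f14, and the windows of Cyp4b1 and Cyp4v3 have none.

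Cyp4v3 and Cyp4b1, which belong to other subfamilies, lay within 2-fold, with positive ratios. The hepatocyte marker median was 0.45 as deposited and 0.18 after quantile normalization or loess. Under these scalings Cyp4v3 was at 0.35 and 0.38 and Cyp4b1 at 0.51 and 0.48. The part of hepatocyte content in these values was not tested. Cyp4v3 is the mouse counterpart of human CYP4V2, the gene of a crystalline retinal dystrophy. Its brighter probe set read 8416 in wild type and 12037 in the knockout, a log2 ratio of 0.52, and the other read 4691 and 5914, a ratio of 0.33. Cyp4b1, an enzyme of fatty acids and plant toxins best known from lung, read 1112 and 1517, a ratio of 0.45. Neither reached 2-fold, and both stayed positive under all 12 settings.

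**Figure D4:**
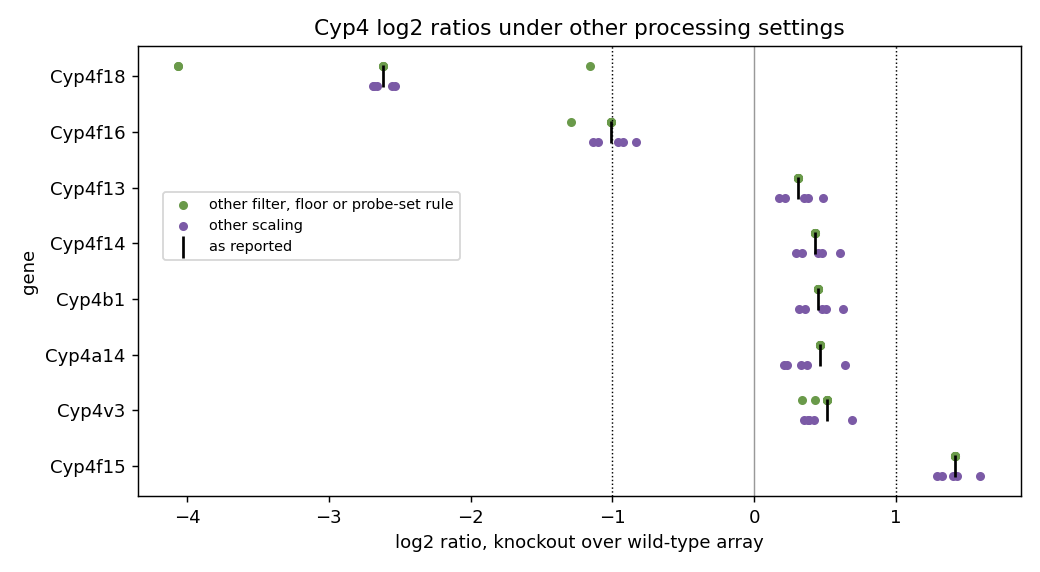
Log2 ratio of each of the 8 Cyp4 members as reported (bar), under 5 other scalings (lower dots) and under other filters, floors and probe-set rules (upper dots); dotted lines mark 2-fold. No member changes sign, Cyp4f16 crosses the 2-fold line, and Cyp4f18 runs from -4.06 to -1.16 with the floor.

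Among the enzymes that act with and after the family 4 P450s, 15 of 16 lay within 2-fold, as did 10197 of all 11693 genes. Over all genes compared, 3.83% were higher and 8.96% lower. Of 20 listed genes of electron supply and of the later steps of omega-oxidation, 16 were measured, 0 higher and 1 lower, with a median log2 ratio of 0.19 that turned to -0.05 after quantile normalization or loess. The lower gene was the aldehyde dehydrogenase Aldh3b1, at 204 and 72.7, a ratio of -1.49. It was below the filter level of 73.7 in the knockout and passed through its wild-type signal, so it had to appear lower. Next lowest were the cytochrome b5 reductase Cyb5r3 (-0.41) and the fatty aldehyde dehydrogenase Aldh3a2 (-0.36). The alcohol dehydrogenases Adh4 (0.89) and Adh5 (0.65) and the mitochondrial aldehyde dehydrogenase Aldh2 (0.60) were highest, though the 5 probe sets of Aldh2 ranged from -0.03 to 1.09.

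PPAR-alpha and its targets in fatty acid oxidation gave a median of 0.07 over 38 measured genes of 40 listed, with 5 lower (13.2%) and 0 higher. Over all genes 8.96% were lower and 3.83% higher. The list's median ran from -0.07 to 0.24 over the other scalings, so its sign depended on them. The receptor gene Ppara, named after its value was seen, read 4175 in wild type and 5099 in the knockout, a ratio of 0.29. The lower genes were the hormone Fgf21 (-3.54), the pyruvate dehydrogenase kinase Pdk4 (-2.74), the acyl-CoA thioesterase Acot2 (-1.68), the lipid droplet coat gene Plin2 (-1.48), also named after its value was seen, and the glycerol channel Aqp7 (at least 3.69-fold lower). Aqp7 was below the floor in the knockout and passed the filter through its wild-type signal, so it had to appear lower. Highest were the flagellin receptor Tlr5 (0.83), the coactivator Ppargc1a (0.59, with 5 probe sets from 0.59 to 1.48) and the peroxisomal thiolase Acaa1a (0.57). Beside these, the PPAR-alpha target Cyp4a14 stood at 0.46.

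Arachidonic acid and leukotriene genes, whose products Cyp4f enzymes hydroxylate, were lower in 6 of 18 measured cases of 27 listed and higher in 1, with a median of -0.18. Over all genes 8.96% were lower and 3.83% higher. The lower genes of the list numbered 4 after quantile normalization, after loess and on the poly-A controls. The leukotriene synthesis partner Alox5ap read 731 in wild type and 212 in the knockout, a ratio of -1.78. Ptgr1, a reductase that inactivates leukotriene B4, read 1025 and 396, a ratio of -1.37, and the phospholipase Pla2g4a, which releases arachidonic acid, stood at -1.03. The prostaglandin D synthases Ptgds and Hpgds were bounded at log2 ratios of -2.04 and -1.59 or lower; both were below the floor in the knockout and passed the filter through their wild-type signal, so these 2 of the 6 had to appear lower. Of the rest, the thromboxane synthase Tbxas1, named after its value was seen, was at -1.02. The higher gene was the epoxygenase Cyp2c29 (1.82), which has close relatives that its probes could read, followed by Cyp2j9 (0.99) and the prostaglandin dehydrogenase Hpgd (0.68). The lipoxygenase Alox5, the leukotriene receptor Ltb4r1 and the cyclooxygenase Ptgs2 were below the floor on both arrays. Other cell type markers stood beside these genes and the lower Cyp4f members. Fibroblast and stellate cell markers were lower in 7 of 10 measured cases and higher in 0, with summed signals of 35716 and 16134. Cholangiocyte markers were lower in 6 of 6 measured cases of 8 listed (5992 and 880.2). Endothelial markers were lower in 1 of 8 (8402 and 7728). These counts stand beside 8.96% of all genes. Among the lower markers, Krt7, Krt19, Sox9 and the stellate cell marker Des were below the filter level of 73.7 in the knockout. They passed the filter through their wild-type signal, so they had to appear lower. Probe sets of the cholangiocyte marker Tspan8 ranged from -2.96 to 0.69 and those of Epcam from -1.75 to -0.08. The part of these cells in these values was not tested.

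**Figure D5:**
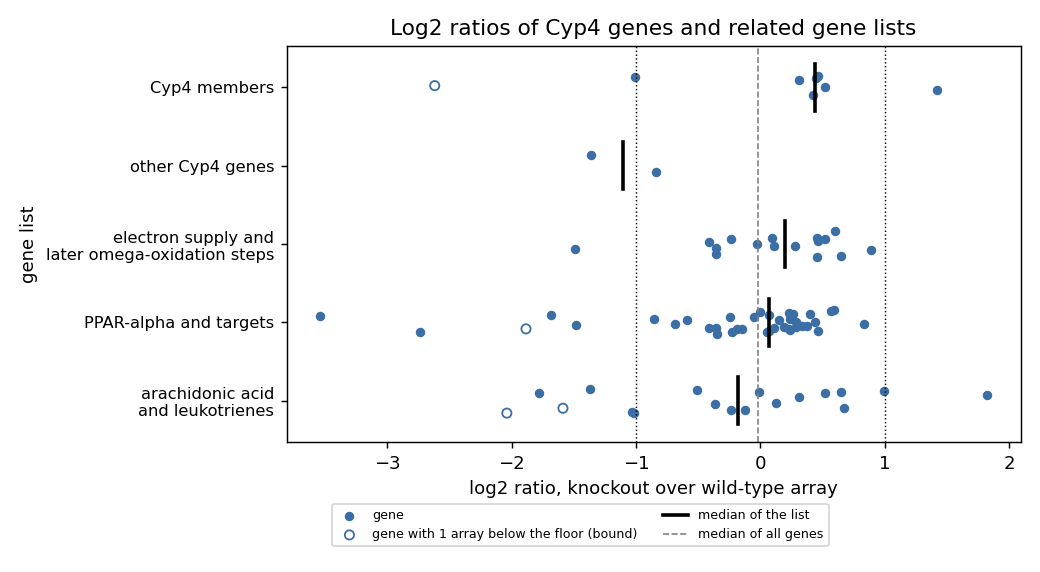
Log2 ratio of each measured gene, knockout over wild type, for the Cyp4 members and 4 related gene lists (points; open where 1 array was below the floor), with each list's median as a black bar, the median of all genes as a dashed line and 2-fold as dotted lines. List medians run from -1.10 for the other Cyp4 genes to 0.44 for the members.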

How the data were processed

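Total RNA of mouse liver, 250 ng per array, was labelled as biotinylated cRNA for Affymetrix arrays, per the labels' protocols. The deposited table gives each probe set an intensity on a linear scale. MAS5 is named in the submitters' processing notes, without settings or detection calls, and the build is not given in the sources used here. With 2% trimmed from each end, the authors' values average 500.004 on either array, so they had been scaled to a common level. The 45101 probe sets comprised 64 controls, 34945 with 1 gene in the annotation, 932 with several and 9160 with none. Current names came from RefSeq (GRCm38.p6), which held the gene identifiers of 34741.

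Signals under the 40th percentile of pooled values (46.5) were raised to it. Probe sets at or above the median of mean signals (73.7) were kept, 19800 in all, and the brightest stood for its gene. The rule for named genes was all members, Kdm3a, Pik3ca, and per pathway list the 3 highest and 3 lowest ratios above the floor plus bounds past 2-fold; cell type markers were named after their values were seen. Members and lists, including the 7 marker lists, were chosen with earlier results of these data known. Alternatives were 5 scalings (loess span 0.3), 2 filters, 3 floors, 2 probe-set rules and size rules of 1.5-fold and 3-fold. Sets ending in _s_at, _x_at, _a_at or _f_at are called cross-matching. Upstream windows were aligned globally with free end gaps. Python 3.11.15 and statsmodels 0.14.6 were used, and the steps were tested on simulated data. There, only genes brighter than Cyp4f16 and Cyp4f18 were changed, with noise below the spread between probe sets of a gene. Calls on dim genes were thus not covered.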

Additional observations from a re-analysis of the deposited data

How the results depend on the processing

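No paired analysis was possible because each group has 1 array, and no replicate could be left out. A value counted as moved when it shifted by more than 0.446, the SD between probe sets of a gene, and a count when it changed by more than 1.5 times. Cyp4f18 stood at -4.06 with the floor at the 20th percentile or with no floor and at -1.16 with the floor at the 60th. Members higher numbered 0 at 3-fold. Members lower numbered 1 after quantile normalization, after loess, on the poly-A controls and at 3-fold, and 0 with the filter at the 70th percentile, which Cyp4f16 and Cyp4f18 did not pass. All genes higher numbered 696 on the poly-A controls, 210 with the filter at the 70th percentile, 250 with the floor at the 60th, 1296 at 1.5-fold and 102 at 3-fold; all genes lower numbered 564 with that filter, 2038 at 1.5-fold and 409 at 3-fold. Other Cyp4 genes lower numbered 2 at 1.5-fold and 0 at 3-fold, and their median was 0.00 without a filter, which adds genes at or near the floor. Omega-oxidation genes higher numbered 1 on the poly-A controls and 3 at 1.5-fold; lower ones numbered 0 with the filter at the 70th percentile, the floor at the 60th or the 3-fold rule. PPAR-alpha genes higher numbered 1 on the poly-A controls and 2 at 1.5-fold, and lower ones 8 at 1.5-fold. Arachidonic acid genes higher numbered 2 after quantile normalization or on the poly-A controls and 4 at 1.5-fold, and lower ones 3 with the filter at the 70th percentile or at 3-fold. The other 301 recomputed values did not move, among them values that a filter, floor or probe-set rule could not change. Dim signals limit Cyp4f16 and Cyp4f18 most.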
